A study of Rattus norvegicus with 4 samples.

Results

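The genes described here are the 9 neuropeptide and opioid genes Penk, Pdyn, Tac1, Nmu, Nmb, Gal, Cartpt, Kiss1 and Vip of the rat anterior pituitary, taken by their symbols from a count table of 30058 genes. All 9 were in the table and had at least 1 unique molecular identifier (UMI, the tag that marks 1 captured mRNA molecule). The counts came from single-cell RNA sequencing of 7861 cells dispersed from the anterior pituitaries of Sprague Dawley rats, 1 pool of 4 pituitaries from females aged 44 days and in diestrus, and 1 pool of 4 from males aged 59 days. None of the rats carried an engineered allele or received an agent, and the posterior and intermediate lobes had been dissected away. Each pool was loaded on 2 lanes, lanes A and B for females and lanes C and D for males, so the lanes are technical loads of 1 pool, p-values between sexes measure lane-to-lane error alone, and sex, pool and age cannot be told apart.

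Neuropeptides are made as larger precursors, which prohormone convertases and carboxypeptidase E cut inside secretory granules into active peptides that act on G protein-coupled receptors. Proenkephalin and prodynorphin give the opioid peptides, tachykinin 1 gives substance P and neurokinin A, and neuromedin U, neuromedin B, galanin, CART, kisspeptin and vasoactive intestinal peptide each come from a precursor gene of their own. The anterior pituitary is known both as a target of hypothalamic neuropeptides and as a gland whose endocrine cells make some of them and release them locally.

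Of the cells, 6864 were kept and sorted into 9 types by marker genes: 2321 folliculostellate cells (FSC), 1890 somatotrophs (S), 794 corticotrophs (C), 550 leukocytes (Le), 486 lactotrophs (L), 361 erythrocytes (E), 241 gonadotrophs (G), 133 endothelial cells (EC) and 88 thyrotrophs (T). The lanes held 18955509 to 24048021 UMIs, with medians of 7971 to 9413 UMIs per cell, and Eif2s3y, a gene of the Y chromosome, had 0 and 1 UMIs in the lanes labelled female and 2038 and 2100 in those labelled male. Ddx3y, listed as another such gene, had 10, 8, 11 and 14 and did not separate the lanes. Depth per cell differed between sexes within types: the median was 18301 UMIs in female and 7265 in male L, 11552.5 and 15448.5 in S, 6270 and 13034 in T, and 12383.5 and 8871 in G. Shares of cells are therefore also given after each cell was thinned to 2000 UMIs, where a cell counted from 1 UMI up. Cells classed as melanotrophs (60, of them 56 male), posterior pituitary cells (59, 55 male) and pericytes (51, 31 male) were kept apart. Doublets and outliers were not removed from these groups. Lanes shared 30 cell barcodes. A level is given in CPM, the UMIs of a gene per 1000000 UMIs of a type, a cell expressed a gene when it lay above that gene's Otsu threshold, and intervals are exact 95% binomial intervals that cover counting error only.

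The promoters of Gal, Cartpt and Vip are shown because Gal and Cartpt differed between the pools in L in opposite directions and Vip differed in S, each from 250 bases before to 50 after the annotated start, as RefSeq gives them for GRCr8. The table of promoters held 8 of the 9 members and no entry for Penk. Gal lies at chr1:210084523-210084822 on the minus strand, Cartpt at chr2:32991186-32991485 on the minus strand and Vip at chr1:44470230-44470529 on the plus strand. Capitals mark TGACGTCA, the full cAMP response element, TGACG, its shorter form that also lies within the full element, and TATAAA, a core motif where basal transcription factors bind.
Gal promoter: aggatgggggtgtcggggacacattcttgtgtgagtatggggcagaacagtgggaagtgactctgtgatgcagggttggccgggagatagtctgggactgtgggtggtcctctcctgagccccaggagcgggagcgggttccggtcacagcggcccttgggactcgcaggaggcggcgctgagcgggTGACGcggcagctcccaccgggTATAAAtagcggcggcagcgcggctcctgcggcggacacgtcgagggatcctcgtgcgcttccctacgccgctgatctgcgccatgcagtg
Cartpt promoter: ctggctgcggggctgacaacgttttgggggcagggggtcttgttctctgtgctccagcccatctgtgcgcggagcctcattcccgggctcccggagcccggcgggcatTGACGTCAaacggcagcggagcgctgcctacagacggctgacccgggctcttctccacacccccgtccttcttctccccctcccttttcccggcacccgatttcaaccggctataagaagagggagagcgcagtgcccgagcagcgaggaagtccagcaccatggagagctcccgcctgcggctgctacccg
Vip promoter: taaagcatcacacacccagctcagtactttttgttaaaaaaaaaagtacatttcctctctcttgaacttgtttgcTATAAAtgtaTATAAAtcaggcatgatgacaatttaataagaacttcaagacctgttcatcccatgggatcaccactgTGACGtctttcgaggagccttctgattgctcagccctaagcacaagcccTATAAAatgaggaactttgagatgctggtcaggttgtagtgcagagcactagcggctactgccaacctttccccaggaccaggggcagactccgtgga

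Both strands were searched, with positions counted back from -1 just before the start. The Cartpt promoter held TGACGTCA from -142 to -135, which 1.83% of 33469 promoters of the same length hold. The Gal promoter held TGACG at -63 and TATAAA at -41, and the Vip promoter held TGACG at -97 and TATAAA at -175, -165 and -48. TGACG stood in 6 of the 8 member promoters (Tac1, Nmu, Gal, Cartpt, Kiss1 and Vip), against 21.2% of all promoters, and TATAAA in 3 (Pdyn, Gal and Vip), against 14.2%. GGTCA, a letter run of hormone receptor elements that is not marked above, stood in Nmu, Gal, Cartpt and Vip, against 40.5% of all promoters. These matches describe letters, and binding was not measured.

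Which cell type carried each member was asked first, by comparing each type with the mean of the other 7, E left out, on sums per type and pool. Each of 7 members was higher in 1 type: Penk in FSC, Pdyn in G, Nmu in T, Tac1 and Vip in S, and Gal and Cartpt in L. In single pools the order differed for Gal, which stood highest in S in males, and for Vip, which stood highest in EC in females. Nmb was spread over the hormone-producing cells and was called in no type. Kiss1 was too low for this test.

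In these contrasts 8 members were tested among 13635 genes. In FSC 1 of the 8 was higher, where 16.5% of all genes were called higher, and in G it was 1, where 6.43% were. In T 1 member was higher, against 3.29% of all genes. In S and in L it was 2 each, against 9.04% and 6.37%. No member was called higher in Le, EC or C by edgeR's quasi-likelihood test, where 17.9%, 12.1% and 8.95% of all genes were. At an unadjusted p below 0.05 these counts were 0, 0 and 2, and DESeq2 called 0, 0 and 0. The median log2 difference of the 8 members was 2.56 in S, 2.56 in L and 0.78 in T, beside 0.10, 0.08 and -0.01 over all genes, and it was -3.03 in Le and -2.69 in EC, beside -0.17 and -0.21. A member entered these tests through the types where it is high, so the counts describe where each lies. Fitted differences against a mean that includes types at 0 UMIs, as for Pdyn, Tac1 and Vip, depend on the fit's handling of 0 and are no bounds.

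**Figure D1:**
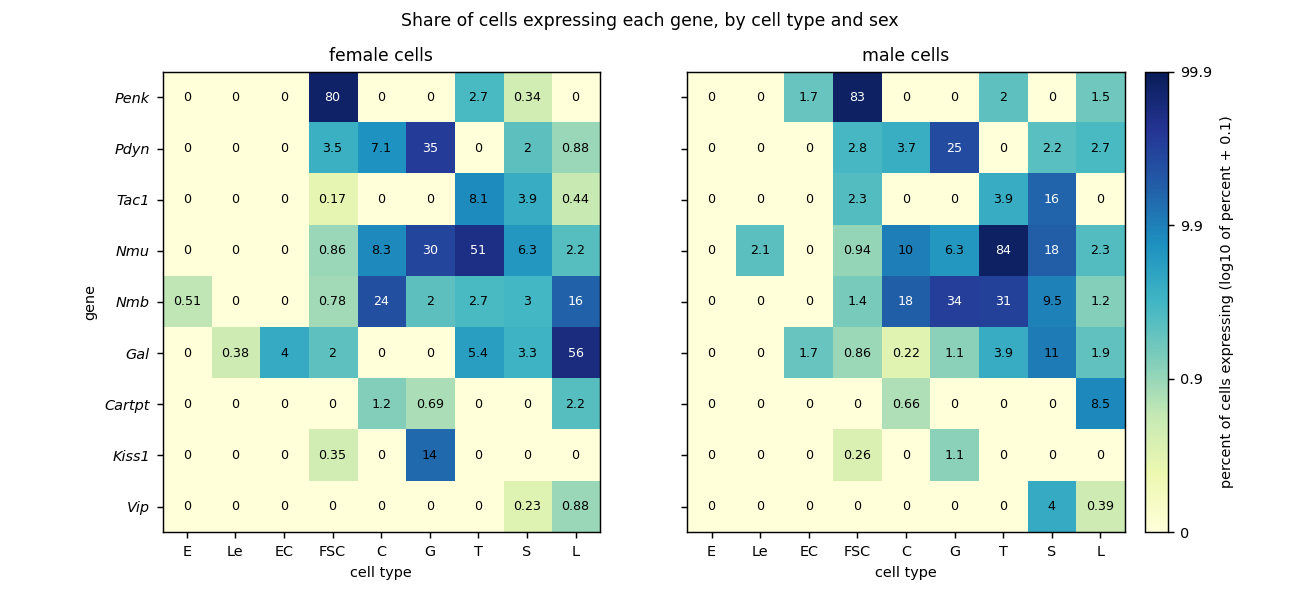
Percent of female and male cells expressing each of the 9 members (vertical axis) in each cell type (horizontal axis), printed in each field and coloured on a log scale. Penk stands at 80.4% and 82.7% of female and male FSC, Nmu at 84.3% of male T and Gal at 56.4% of female L, while Vip stays at or below 4.04% in every type.

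Penk, the precursor of met- and leu-enkephalin, was the most confined of the members by its share of UMIs. FSC, the non-endocrine network cells of the gland, held 31874 of 32450 Penk UMIs, or 98.2%. Penk was expressed in 81.5% of FSC (interval 79.9 to 83.1), by lane in 78.4% and 82.1% of female and 81.8% and 83.5% of male FSC. Thinned to equal depth, 78.6% of FSC had at least 1 Penk UMI, beside 93% before thinning. The Penk level in FSC was 1293 and 1359 CPM in the female lanes and 1930 and 1961 in the male lanes, so the sexes did not overlap.

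In the other types the Penk level lay between 4.44 CPM in E and 25.4 in T, with 8.34 in Le, 9.76 in C, 10.6 in S, 13 in G, 13 in EC and 13.3 in L. All 31 Le cells with Penk had exactly 1 UMI, and none passed the threshold of expression. The 25.4 of T rested on 1 cell of 9 UMIs in each sex. Penk was higher in FSC than in the mean of the other types by 6.71 on the log2 scale (SE 0.12, adjusted p = 6.6e-15), and by 5.92 than in T, the next in order (SE 0.28, adjusted p = 3.7e-09), a contrast in which 9.59% of all genes were called. Penk was lower than the mean of the other types in C (fell by 1.48, adjusted p = 4.3e-05), Le (fell by 1.31, adjusted p = 0.00031) and S (fell by 0.99, adjusted p = 0.00062). That mean holds FSC, which raises it, so these calls give no order among the types outside FSC.

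Within FSC, Penk varied with Gpha2, which encodes a glycoprotein hormone alpha chain, and Krt7, a keratin. Penk was expressed in 91% of the 1349 FSC counted as having Gpha2 and not Krt7, at 2063 CPM. The study reports Gpha2 above its threshold in a smaller share of FSC. The cut for Gpha2 and Krt7 in these groups may therefore be looser than the threshold of expression. It was expressed in 64.9% of the 77 FSC with Krt7 and not Gpha2 (781 CPM), in 71.4% of the 84 with both (864) and in 68.3% of the 811 with neither (1207). At equal depth these shares were 87.3%, 57.1%, 66.7% and 67.4%, again highest in the cells with Gpha2 and not Krt7. The cells with both genes no longer stood above those with neither. Penk was also a matter of amount: 1022 FSC had 10 UMIs or more, and the highest cell had 195. The genes most like Penk over 32 sums of 8 types and 4 lanes were Capn6 (Pearson r = 0.952), a marker used to class FSC, then Hey2 (0.921) and Gpr37l1 (0.902), and these points share libraries and cell types.

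Pdyn, the precursor of the dynorphins, was highest, among the 9 types, in G, the cells that make luteinizing and follicle-stimulating hormone. The melanotrophs kept apart, 56 of 60 of them male, stood at 57.9 CPM beside 50.1 in G. In the male pool alone they stood above G, at 59.2 CPM beside 42. Pdyn was expressed in 44.6% of male melanotrophs and 25.3% of male G. In G by lane it was expressed in 35.5% and 34.3% of female and 22.9% and 27.7% of male cells, 31.1% in all (interval 25.3 to 37.4). The female lanes stood above the male lanes by this share. The Pdyn level in G was 59.2 and 48.6 CPM in the female and 31.1 and 52.4 in the male lanes, where the sexes overlapped. G held 142 of the 344 Pdyn UMIs, with at most 7 in a cell, and at 2000 UMIs per cell Pdyn was seen in 6.22% of G.

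Next in order of Pdyn level came C at 5.04 CPM and FSC at 4.66, whose lanes overlapped (3.29 to 8.44 in C and 3.62 to 5.87 in FSC), then S at 2.08 and L at 1.74. Pdyn had 0 UMIs in E, Le, EC and T, and 0 of 550 Le cells allows a share of up to 0.545%, while 0 of 88 T cells allows up to 3.41%. Pdyn was higher in G than in the mean of the other types by 6.64 on the log2 scale (SE 0.44, adjusted p = 3.8e-07). In C it was lower than in G by 3.14 (SE 0.41, log2 difference -3.14, adjusted p = 0.0002), a contrast in which 4.24% of all genes were called. Of the 76 FSC with a Pdyn UMI, 75 also had Penk UMIs, as did 93% of all FSC. Pdyn was expressed in 4.67% of the Gpha2 cells among FSC and in 0.74% of those with neither Gpha2 nor Krt7. By level, Pdyn was most like Wbscr17 (r = 0.899), Atp2b3 and RGD1559446.

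Tac1, which encodes the tachykinins substance P and neurokinin A, was highest in S, the growth hormone cells, and differed between the pools there. Tac1 was expressed in 4.55% and 3.21% of female and 16.6% and 14.6% of male S by lane. Its level was 38.5 and 48.9 CPM in the female lanes and 125 and 155 in the male lanes, with no overlap. Tac1 was higher in male than in female S by 1.62 on the log2 scale (SE 0.09, adjusted p = 5e-17). At equal depth 2.63% of female and 10.7% of male S had Tac1, so the order of the sexes was the same.

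S held 2688 of the 2909 Tac1 UMIs (92.4%), and 65 S cells had 10 or more, up to 152 in 1 cell. The order of Tac1 levels after the 102 CPM of S was T at 22.3, FSC at 9.11, C at 1.61 and L at 1.11, and Le had 0 UMIs. Tac1 in T was 2.71 below S on the log2 scale (SE 0.65), which did not pass the limit (adjusted p = 0.019, a contrast in which 0.836% of all genes were called). In FSC it was lower than in S, with a log2 difference of -4.22 (SE 0.50, adjusted p = 7.2e-06, 25.5% of all genes called). Tac1 was higher in S than in the mean of the other types by 6.64 (SE 0.42, adjusted p = 3.5e-08).

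Male FSC also held Tac1. The FSC level was 1.47 and 1.11 CPM in the female lanes and 16.1 and 14.9 in the male lanes, a log2 difference of 3.53 (SE 0.30, adjusted p = 1.7e-07). All 11 female FSC with Tac1 had 1 UMI, while the 163 UMIs of male FSC reached 26 in 1 cell. In the 20 male FSC with 3 or more Tac1 UMIs, Gh1, the growth hormone gene, took a median 0.303% of UMIs, beside 0.319% in the 1118 male FSC without Tac1. In the same cells S100b, a marker of FSC, took 0.0262% against 0.105%, and Cga, the shared alpha subunit of the glycoprotein hormones, 0.137% against 0.0273%. Among FSC with Krt7 and not Gpha2, 10.4% expressed Tac1, beside 0.445% of the Gpha2 cells without Krt7. Over all FSC 29 of 2321 cells expressed Tac1, and part of them lay outside these 2 groups. By level, Tac1 was most like Colec11 (r = 0.888), Gcsh and Htatsf1.

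Nmu, the precursor of neuromedin U, which acts on feeding and smooth muscle, had its highest level in T, the thyrotropin cells, and lower levels in G, S and C, of which G and S differed between the pools in opposite directions. In T, Nmu was expressed in 66.7% and 36.8% of female and 78.6% and 91.3% of male cells by lane. Its T level was 706 and 919 CPM in the female lanes and 1290 and 814 in the male lanes, so levels overlapped between the sexes. The male to female difference in T was 0.49 on the log2 scale (SE 0.19, adjusted p = 0.17). With 37 female and 51 male T cells, shares were loose: 51.4% (34.4 to 68.1) in females and 84.3% (71.4 to 93) in males, and 40.5% and 66.7% at equal depth.

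T held 994 of the 3759 Nmu UMIs and the more numerous S held 2005. The order of Nmu levels was 1009 CPM in T, 102 in G, 75.9 in S, 33.3 in C and 12.5 in L, with 1.88 in Le. Nmu was higher in T than in the mean of the other types by 6.31 on the log2 scale (SE 0.44, adjusted p = 1.4e-07). Against its next neighbours singly the contrast did not pass the limit: G lay 3.43 below T (SE 0.70, adjusted p = 0.0096, 0.645% of all genes called) and T lay 3.30 above S (SE 0.66, adjusted p = 0.0058). Each of these pairs rests on 2 pools whose sex difference runs in opposite directions in G and S. In T, the 30 cells with 10 or more Nmu UMIs gave a median 8.22% of their UMIs to Tshb, the thyrotropin beta gene. The 24 cells without Nmu gave 0.0183%, at median depths of 15929 and 6754.5 UMIs. Those 24 cells were 18 female and 6 male, while T cells with any Nmu UMI were 19 female and 45 male. This contrast joins both pools, and Nmu was not separated from pool or depth in it. Over the sums Nmu was most like Dio2 (r = 0.903), Trnp1 and Cox20.

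In G the Nmu level was 119 and 164 CPM in the female lanes and 24.4 and 18.9 in the male lanes, with no overlap. Nmu was lower in male than in female G, with a log2 difference of -2.97 (SE 0.30, adjusted p = 3.1e-06). In S the order was the other way, 32.7 and 36 in the female and 90.5 and 116 in the male lanes, and Nmu was higher in male S by 1.53 (SE 0.10, adjusted p = 1.2e-15). In C the lanes gave 34.3, 35.7, 35.4 and 28.4, and the difference of -0.20 did not pass (adjusted p = 0.77). Shares followed the levels: 29.5% of female and 6.32% of male G expressed Nmu, and 16.4% and 0% at equal depth. In S it was 6.28% and 17.8%, and 5.02% and 10.7% at equal depth. In L, Nmu was lower in males, with a log2 difference of -2.23 (SE 0.47, adjusted p = 0.00012), but 1 female cell held 31 of the 68 female UMIs, and the call was lost with DESeq2 (adjusted p = 0.018) and without TMM factors (adjusted p = 0.0083).

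**Figure D2:**
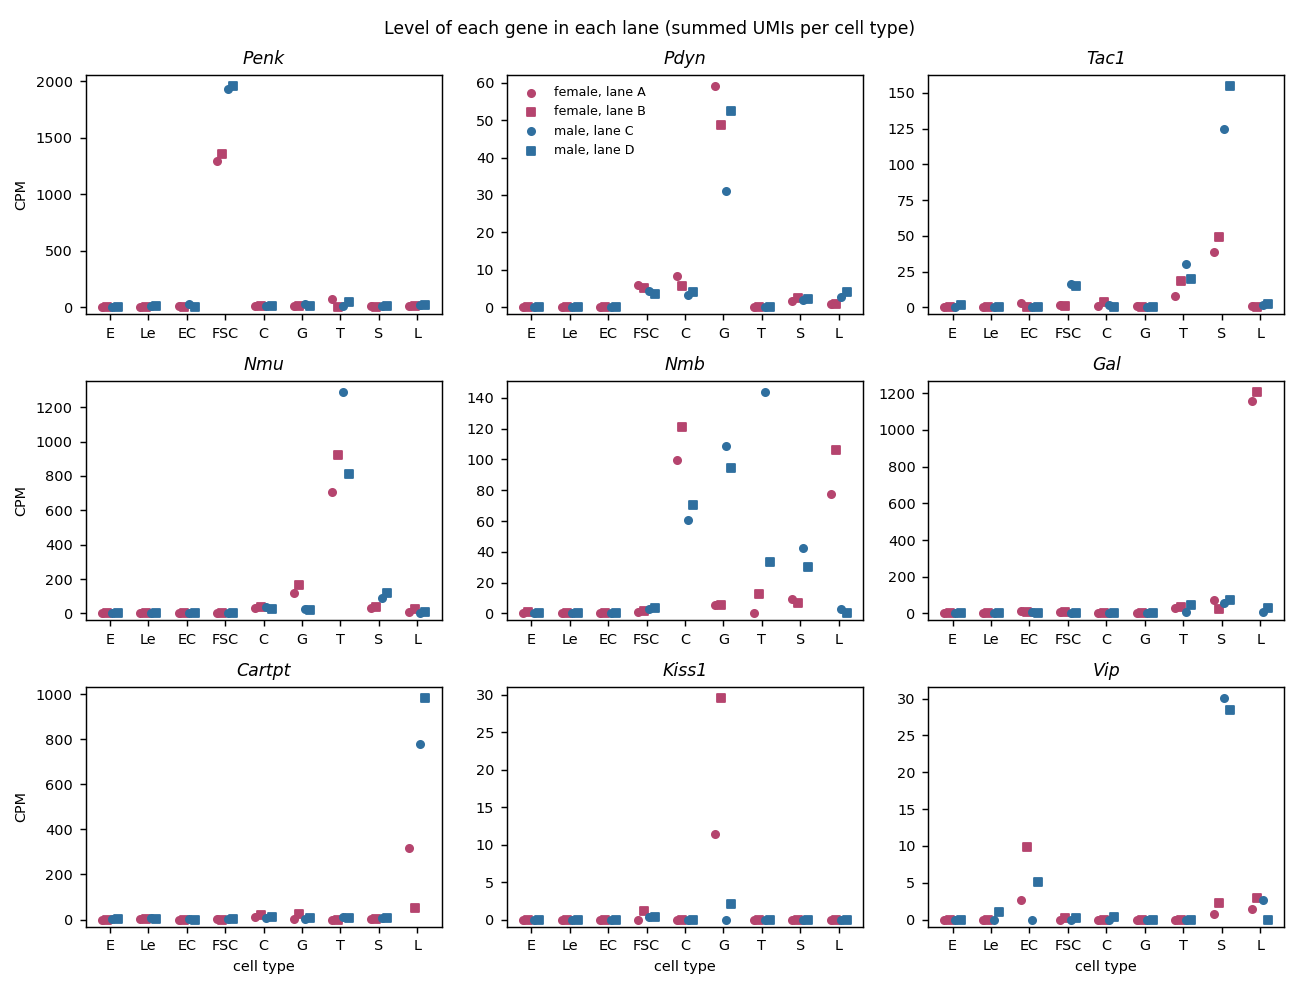
Level of each member (vertical axis, CPM on a linear scale of its own per gene) in each cell type, with 1 point per lane: female lanes A and B in red and male lanes C and D in blue. Gal in L stands at 1155 and 1208 in the female lanes and at 8.17 and 27.6 in the male lanes, while Penk in FSC lies between 1293 and 1961 in all 4.

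Nmb, the precursor of neuromedin B, a bombesin-like peptide, was found in all 5 hormone-producing types and had 4 called sex differences, more than any other member. In C, the corticotropin cells, its level was 99.6 and 121 CPM in the female lanes and 60.6 and 70.2 in the male lanes. In L, the prolactin cells, it was 77.3 and 106 in the female lanes and 2.72 and 0 in the male lanes. By level, these 2 types had more Nmb in females, in every lane.

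The other 3 types had more in males. In G the Nmb level was 5.19 and 5.28 CPM in the female and 109 and 94.4 in the male lanes, in S 9.14 and 6.83 against 42.5 and 30.3, and in T 0 and 12.3 against 144 and 33.1. In none of the 5 types did the sexes overlap. Nmb was lower in male L by a log2 difference of -6.54 (SE 0.37, adjusted p = 2.1e-20) and in male C by -0.83 (SE 0.12, adjusted p = 1.7e-05), and higher in male G by 3.97 (SE 0.34, adjusted p = 7.6e-07) and in male S by 2.13 (SE 0.17, adjusted p = 6.3e-13). T was too sparse for the test. The call in C was lost with DESeq2 (adjusted p = 0.0018), without lane B (0.0027) and without lane C (0.0011).

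Cells expressing Nmb made up 23.5% of female and 17.5% of male C, 16.3% and 1.16% of L, and 2.05% and 33.7% of G. In T it was 2.7% and 31.4%, and in S 2.97% and 9.47%. At equal depth the shares were 10.4% and 6.77% in C, 7.49% and 0.772% in L, and 0% and 11.6% in G. In T they were 0% and 9.8%, and in S 1.03% and 4.14%. The thinned lanes of C overlapped, with 8.48% in female lane A and 9.13% in male lane C. In L, 386 female and 3 male UMIs stood behind the values, a ratio of levels of 63.3 (exact interval 21.5 to 308), and 1 female cell held 84 of the 386 (21.8%). This interval takes UMIs as independent, which UMIs gathered in 1 cell are not, so it is too narrow. The order of Nmb levels differed between the pools: in females it was 111 CPM in C, 91.4 in L, 7.96 in S, 6.97 in T and 5.24 in G, and in males 101 in G, 95.9 in T, 65.3 in C, 36.2 in S and 1.44 in L. FSC stood at 2.25 over both sexes, and Le and EC had 0 UMIs. C and T, the highest over both pools at 84.6 and 70 CPM, differed by 0.81 on the log2 scale (SE 1.34, adjusted p = 0.78, 1.83% of all genes called), less than their spread. Over the sums Nmb was most like Fads6 (r = 0.907), Fasn and Sec11c.

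Gal, the precursor of galanin, a peptide known to follow estrogen in lactotrophs, was highest in L in the female pool and in S in the male pool. In males S stood at 63.5 CPM and L at 17.3, with no overlap of lanes, and S held 91.5% of the male Gal UMIs, while L held 88.8% of the female ones. By lane 54% and 59.2% of female and 2.29% and 1.56% of male L expressed Gal. Its L level was 1155 and 1208 CPM in the female lanes and 8.17 and 27.6 in the male lanes, with no overlap. Gal was lower in male L by a log2 difference of -6.73 (SE 0.14, adjusted p = 3.6e-38). At 2000 UMIs per cell 47.6% of female and 1.54% of male L had Gal, the same order at equal depth.

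L held 5027 of the 6723 Gal UMIs, of which the 3 highest cells held 25.7%, up to 537 in 1 cell. S came next at 58.2 CPM, by lane 75.4, 26.2, 55.8 and 70.6, where the sexes overlapped and the difference of 0.28 did not pass (SE 0.17, adjusted p = 0.26). In female S, 2 cells of 208 and 87 UMIs made up most of the 530 UMIs, and 3.31% of female against 10.7% of male S expressed Gal. The 3 female S cells with 10 or more Gal UMIs gave a median 17.9% of UMIs to Gh1 and 0.114% to Prl, the prolactin gene. Gal levels then stood at 28.4 in T, 7.8 in EC, 4.55 in FSC, 2.82 in G, 1.88 in Le and 1.72 in C. Gal was higher in L than in the mean of the other types by 6.41 on the log2 scale (SE 0.69, adjusted p = 5.4e-06), and against S singly the contrast did not pass, at -2.49 for S minus L (SE 1.09, adjusted p = 0.18, 2.35% of all genes called). In Le, which make no prolactin, the Gal level was 3.99 in female and 0 in male cells. In level Gal was most like Krtcap2 (r = 0.856), Nme2 and Cd63.

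Cartpt, which encodes the CART peptides of feeding and stress circuits, was carried by a small number of L cells. By lane 3.23% and 0.971% of female and 8.4% and 8.59% of male L expressed Cartpt. Its L level was 319 and 50.2 CPM in the female lanes and 778 and 983 in the male lanes, so the sexes did not overlap, and the female lanes lay far apart. Cartpt was higher in male L by 1.60 on the log2 scale by edgeR (SE 0.24, adjusted p = 2.7e-07) and was not called by DESeq2 (adjusted p = 0.43).

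L held 2604 of the 2899 Cartpt UMIs (89.8%), in 48 cells, of which 25 had 10 or more and 4 held 50% of the UMIs. In females 1 cell held 61.8%. The 25 cells gave a median 31% of their UMIs to Prl, beside 21.3% in the 438 L without Cartpt, both sexes joined. In male L alone these medians were 27.4% in 20 such cells and 12% in the 226 without Cartpt. Cartpt in L was higher than in the mean of the other types by 7.10 (SE 0.36, adjusted p = 1.5e-09), and C, next in order at 12.3 CPM beside 413 in L, was lower by a log2 difference of -5.25 (SE 0.63, adjusted p = 2.7e-05, 5.77% of all genes called). G stood at 10.2, T at 6.09, Le at 4.03 and S at 3.63.

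In S the Cartpt level was 1.17 and 0.554 CPM in the female and 6.17 and 4.85 in the male lanes, a log2 difference of 2.60 (SE 0.41, adjusted p = 4.7e-06). No S cell passed the threshold of expression, and 82 of the 89 S cells with Cartpt had 1 UMI. The order was the same in Le, with 2.43 and 1.07 in the female and 8.67 and 3.24 in the male lanes, and in FSC, with 0.49 and 0.222 against 2.08 and 3.05. Whether free RNA of male L has a part in the S value was not tested. The S call was lost with DESeq2 (adjusted p = 0.0031), without lane A (0.0017) and without lane B (0.007). In level Cartpt was most like Slc6a14 (r = 0.856), LOC100909811 and Fetub.

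**Figure D3:**
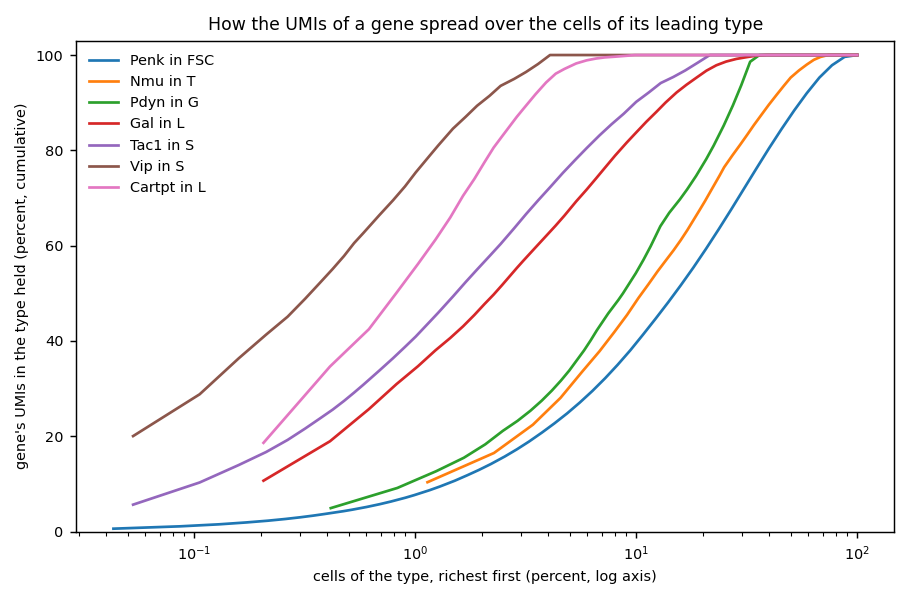
Cumulative percent of a member's UMIs in its leading cell type (vertical axis) against the percent of that type's cells, richest first (horizontal log axis), for 7 members. Vip in S and Cartpt in L rise first, with 50% of the Cartpt UMIs in 4 cells, and Penk in FSC last, with 50% in 348 cells.

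Kiss1, the precursor of kisspeptin, which drives gonadotropin release, had most of its UMIs in female G. By lane the G cells held 11, 28, 0 and 1 Kiss1 UMIs, a level of 11.4 and 29.6 CPM in females and 0 and 2.1 in males. Kiss1 was expressed in 14.4% of female G (interval 9.13 to 21.1) and in 1.05% of male G (0.0266 to 5.73). The highest cell held 8 UMIs. G had 40 of the 49 Kiss1 UMIs, 39 of them female, FSC had the other 9, of which 5 were female and 4 male, and all remaining types had 0. Kiss1 stayed below the count minimum of the tests within types, so no test is given. The female level was 18.9 times the male level, with an exact interval of 3.21 to 767 from 39 and 1 UMIs. Here too the interval takes UMIs as independent, though 1 cell held 8 of them. At equal depth 2.05% of female and 0% of male G had Kiss1. The genes most like Kiss1 in level, LOC103692665 (r = 0.948), LOC100362486 and Utf1, rest on the same few UMIs.

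Vip, the precursor of vasoactive intestinal peptide, a known releaser of prolactin, was found in few S cells of the male pool. The S cells held 4, 12, 229 and 234 Vip UMIs by lane, a level of 0.778 and 2.22 CPM in the female and 30.1 and 28.4 in the male lanes, with no overlap. Vip was higher in male S by 4.19 on the log2 scale (SE 0.24, adjusted p = 2.9e-17). It was expressed in 0.228% of female (0.0277 to 0.822) and 4.04% of male S (2.92 to 5.45), and 0.228% and 2.56% had it at equal depth. S had 479 of the 500 Vip UMIs, and 1 cell held 96 of them (20%). The 12 male S cells with 10 or more Vip UMIs gave 19.1% of their UMIs to Gh1, beside 31.8% in the 946 without Vip.

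Vip was higher in S than in the mean of the other types by 5.91 on the log2 scale (SE 0.78, adjusted p = 6.4e-05). Over both sexes its level was 18.1 CPM in S, 4.33 in EC and 1.9 in L, an order set by the male pool (29.2, 2.1 and 1.44). In the female pool S at 1.52 CPM lay below EC at 5.9 and L at 2.13. EC, where Vip rested on 5 UMIs, lay 1.87 below S (SE 1.17, adjusted p = 0.21, a contrast in which 22.2% of all genes were called), so these neighbours did not differ beyond their spread. Le had 1 Vip UMI, and G and T had 0. By level, Vip was most like Slc22a12 (r = 0.815), Tchhl1 and Calcb (0.771).

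The sex differences of the members were then counted over types. Of 29 pairs of a member and a type with enough counts, 14 were called between the 2 female and the 2 male lanes. A pair could enter through the sex where the member was high, as Nmb in L did with 386 female and 3 male UMIs. The counts below therefore describe the tested pairs and not the members as a set. In S 5 of 8 tested members were called, all higher in males (Tac1, Nmu, Nmb, Vip and Cartpt), where 11% of all genes were called. In L 4 of 5 were called, Gal, Nmb and Nmu lower and Cartpt higher in males, where 17.6% of all genes were. In G it was 2 of 3, Nmb higher and Nmu lower in males, against 4.59% of all genes.

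In FSC 2 of 7 were called, Penk and Tac1, both higher in males, against 3.18% of all genes. Penk in FSC differed by 0.51 on the log2 scale (SE 0.04, adjusted p = 3.5e-08). Against the mean sex difference of the other types it gave 0.31 and was not called (adjusted p = 0.62). Only 9 of 3499 hormone-producing cells expressed Penk, so that contrast cannot show whether the difference is particular to FSC. In C 1 of 5 was called, Nmb, lower in males, against 0.604%. In T the 1 member tested, Nmu, was not called, against 1.53% of all genes, though its unadjusted p was 0.015 by edgeR, and DESeq2 called 0. Pdyn was called in none of the 4 types where it was tested (C, FSC, G and S), with differences from -0.96 to -0.06. A p that misses the limit does not show that levels were alike. The median log2 difference of the tested members was 1.57 in S and -2.23 in L, beside 0.01 and 0.02 over all genes. These medians likewise cover only the pairs that entered the tests. With library size in place of TMM factors the median over all genes moved to 0.67 in L and 0.28 in G, and no member in these tests turned its direction.

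**Figure D4:**
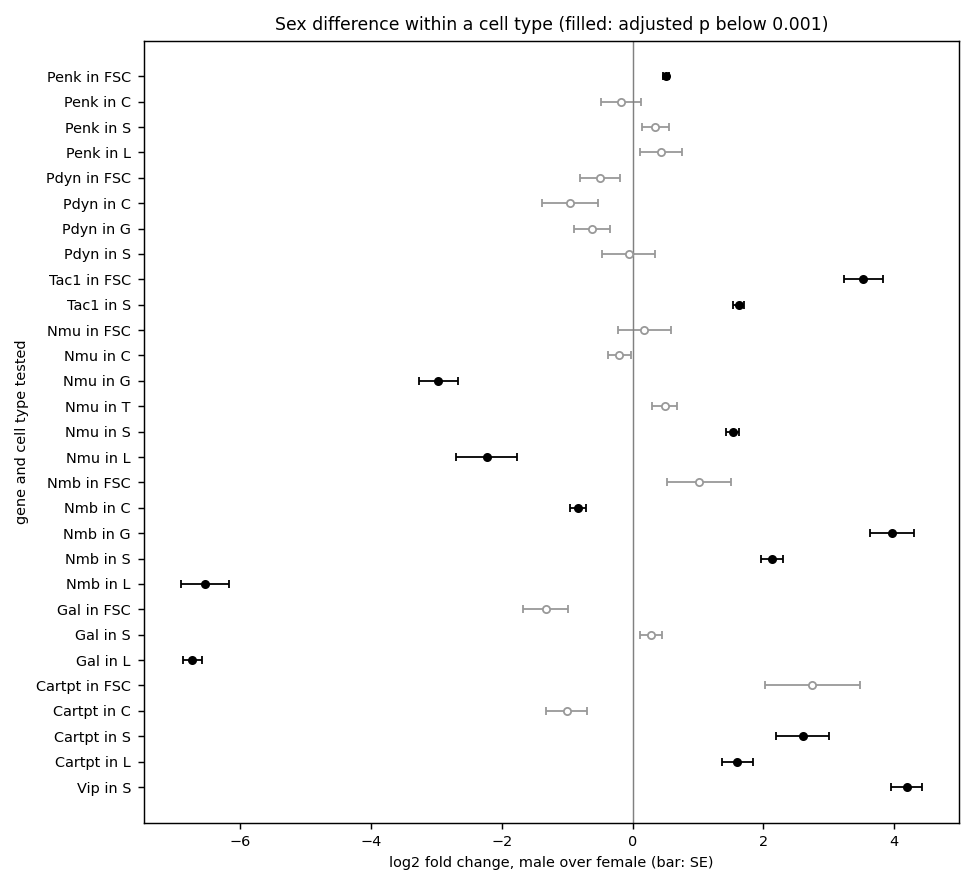
Male minus female log2 difference of each tested member within each cell type, from edgeR on sums per lane, with bars of 1 SE and filled points for adjusted p below 0.001. Nmb runs from -6.54 in L to 3.97 in G, and Nmu from -2.97 in G to 1.53 in S.

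Whether a sex difference in 1 type differed from that in the mean of the other 5 pituitary types was tested on all 24 sums of type and lane. It did for 4 of the pairs. Nmb in L was lower in males beyond the other types by -8.63 on the log2 scale (SE 0.55, adjusted p = 7.9e-18) and Gal in L by -6.07 (SE 1.32, adjusted p = 0.00054), 2 of 9 members, where 6.41% of all genes were called. Only 1 of 794 C, 1 of 241 G and 4 of 88 T cells expressed Gal. The Gal contrast rests largely on such low counts and cannot show whether the difference is particular to L. In S, which had more Gal, the sex difference of 0.28 was not called. Nmu in G differed by -2.98 (SE 0.49, adjusted p = 2.9e-05), 1 of 9 against 1.34%, and Nmu in S by 2.45 (SE 0.26, adjusted p = 2.3e-09), 1 of 9 against 0.952%.

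Without lane C the Gal value was -4.46 (adjusted p = 1), and with doublets and outliers kept it was -5.15 (adjusted p = 0.0025), so this call rests on lane C and on the cell filters. No member was called in FSC, C or T by edgeR, where 1.31%, 0.45% and 0.686% of all genes were, with 1, 1 and 2 members at an unadjusted p below 0.05 and 1 (Tac1), 0 and 0 called by DESeq2. Among these, Tac1 in FSC gave 3.79 (adjusted p = 0.017), Nmb in T 4.09 (adjusted p = 0.012) and Nmu in T 1.39 (adjusted p = 0.0015). Nmb in G gave 4.03 (adjusted p = 0.0021) and also missed the limit. For Pdyn, Vip and Kiss1, and for Tac1 in C, no standard error was obtained, and these pairs have no usable test.

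UMIs of several members also occurred in the same cells, counted from 1 UMI up and so including stray UMIs. In Le 10% of cells had a UMI of at least 1 member and 0.545% of 2 or more, and in E 6.09% and 0%. In male S 161 cells had a Penk UMI and 80 a Cartpt UMI, and none of them passed the threshold of either gene. In male S, 42.5% of cells had UMIs of 2 or more members, against 12.6% of female S, and 7% against 0.913% at equal depth. The 35 male S cells with 5 or more members had a median of 20496 UMIs, and those with none 12672. Of male S with Tac1, 36.5% had Nmb, beside 14.9% of those without (median depths 17468 and 14553), and of male S with Nmu 49.4% had Gal, beside 24% of those without. In female L the share with 2 or more members was 44.9%, against 7.72% in male L, and 6.61% against 1.54% at equal depth. In female L with Nmb 85.3% had Gal, beside 66.7% of those without (21632.5 and 16847 UMIs). In female G with Pdyn 67.9% had Nmu, beside 47.8% without (17533 and 9663.5 UMIs). In each of these pairs with depths given, the cells holding the first gene were the deeper ones, and what depth contributes was not tested.

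Of 17 receptors listed for the members' peptides and related ones, with none for CART, 16 stayed below 3 CPM in every type. The highest of them stood at 2.3, and 3 had no UMI at all (Oprm1, Nmur2 and Galr2). Reads come from the 3′ ends of transcripts, and those beyond a gene's lengthened end are not counted. A low or missing count therefore does not show that a receptor is absent. The exception, Adcyap1r1, the PACAP receptor that also binds vasoactive intestinal peptide weakly, was the only one tested between types. It was higher in FSC by 5.76 on the log2 scale (SE 0.51, adjusted p = 3.5e-07; 64.8 CPM) and in G by 4.59 (SE 0.69, adjusted p = 0.0002; 30 CPM). In G it was also higher in males, by 3.81 (SE 0.36, adjusted p = 2.1e-06). That is 1 of 1 receptor tested between types in FSC and in G, where 16.5% and 6.43% of all genes were called higher. Adcyap1r1 entered this test through the types where it is high, and the other receptors were too low for it. The count was therefore set by the filter and does not describe the list. Between the sexes Vipr2, a receptor of vasoactive intestinal peptide, was also tested in FSC and was not called (0.47, SE 0.46, adjusted p = 0.59).

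**Figure D5:**
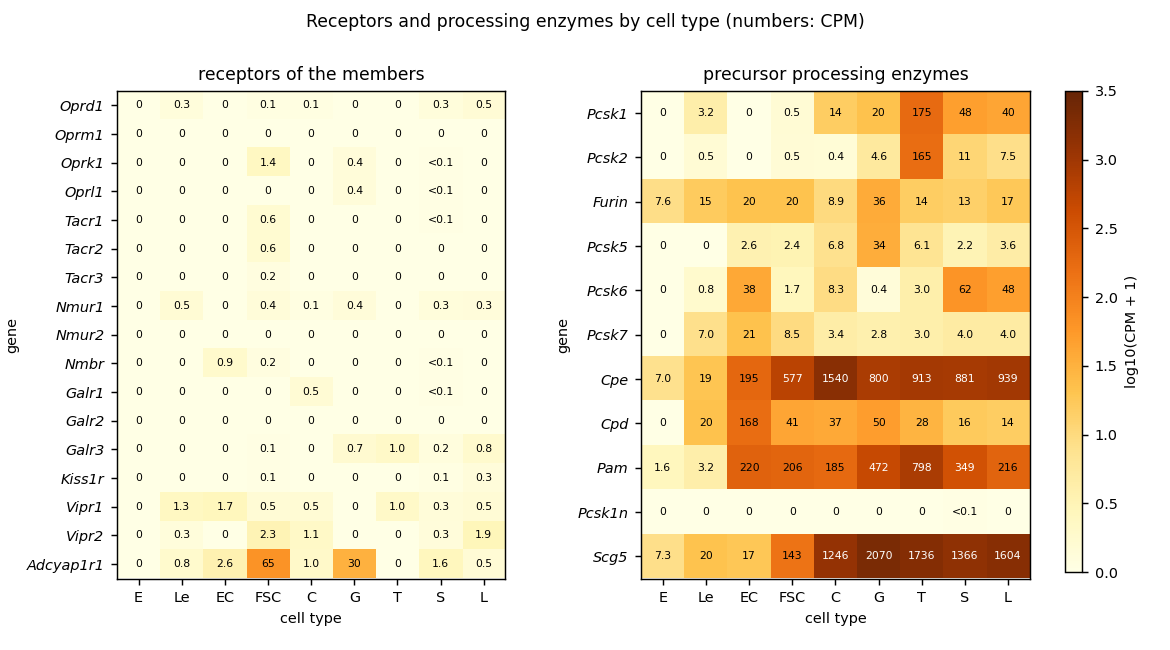
Level (CPM, printed in each field and coloured as log10 of CPM + 1) of the 17 receptors and the 11 processing enzymes in the table (vertical axes) in each of the 9 cell types (horizontal axes). Among the receptors Adcyap1r1 alone stands above 3, at 64.8 in FSC and 30 in G, and among the enzymes Pcsk1 and Pcsk2 are highest in T.

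Of 40 other neuropeptide genes 39 were in the table and 12 were tested. These 12 entered through the types where they are high, so the counts describe where each lies. Higher against the mean of the other types were 5 in FSC, 3 in EC, 2 in L, and 1 each in C, S and T. Of all genes 16.5%, 12.1%, 6.37%, 8.95%, 9.04% and 3.29% were higher in these types. DESeq2 called 3 higher in FSC, 3 in EC, 1 each in L, C and T, and 0 in S. None was called in G by edgeR or DESeq2, where 5 were higher at an unadjusted p below 0.05. In Le 1 was lower, Nucb2 (log2 difference -2.10). In FSC beside Penk these were led by Agt, the angiotensin precursor (6.86), Apln, which encodes apelin (4.56), and Pnoc, the nociceptin precursor (4.39). By level Pnoc stood highest in T (7.1 CPM), where its difference of 4.65 (SE 1.33) did not pass edgeR's test (adjusted p = 0.029). EC had Apln (7.56), Npw, which encodes neuropeptide W (6.32), and Adm, the adrenomedullin gene (3.76). Beside Gal and Cartpt, L had Vgf (4.62) and Nucb2, the nesfatin precursor (1.99). Beside Nmu, T had Vgf, a granule protein (6.05), beside Tac1 and Vip, S had Calca, the calcitonin gene (4.02), and C had Nppc, the C-type natriuretic peptide gene (3.23). The median of the list was 0.62 in FSC, 0.67 in L, 1.11 in T and 0.10 in S, beside 0.13, 0.08, -0.01 and 0.10 over all genes.

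Of 12 precursor processing enzymes, 11 were in the table and 10 were tested. S had 5 higher, L 4, T 4, G 3 and C 2, with none lower, where 9.04%, 6.37%, 3.29%, 6.43% and 8.95% of all genes were higher. T was led by the convertases Pcsk2 (6.78) and Pcsk1 (4.92) and by Scg5, the chaperone of Pcsk2 (2.21). S was led by Pcsk6 (4.25), Pcsk1 (3.37) and Scg5 (2.46), and L by Pcsk6 (3.64), Pcsk1 (3.32) and Scg5 (2.78).

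G had Pcsk5 (4.20), Scg5 (2.66) and Pam, the amidating enzyme (1.62), and C had Cpe, carboxypeptidase E (1.98), and Scg5 (1.87). FSC, where Penk was highest, had no enzyme higher and Scg5 lower (log2 difference -1.93). EC had Cpd (2.20) and Pcsk7 (1.82) higher and 2 lower, among them Scg5 (-5.55), and Le had 4 lower, led by Pcsk5 (-7.33), Pam (-6.14) and Cpe (-4.84). The median of the list was 1.44 in S, 1.31 in L, 1.21 in G and 1.02 in T, beside 0.10, 0.08, 0.06 and -0.01 over all genes.

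Between the sexes, 4 of 8 other neuropeptide genes and 4 of 10 enzymes tested in S were called. In L it was 2 of 2 and 6 of 8, and of all genes 11% were called in S and 17.6% in L. List genes could also enter these tests through the sex where they were high. By DESeq2 the calls were 2 and 4 in S, and 1 and 2 in L, with 0 in L higher in males. In S, Calcb, a calcitonin-related gene (4.81), Calca (1.92), Vgf (0.88), Pcsk1 (0.97), Pam (0.53) and Cpe (0.36) were higher in males, and Tac3, the neurokinin B precursor (log2 difference -1.97), and Pcsk2 (-1.68) were lower. In L, 4 of the 8 tested enzymes were lower in males, Pcsk6 (-2.05), Pcsk1 (-0.92), Pam (-0.49) and Cpe (-0.45). Another 2 were higher, Pcsk2 (2.62) and Scg5 (0.28), while Nucb2 was lower (-1.62) and Vgf higher (0.88). With library size in place of TMM factors, the median over all genes in L was 0.67. That is larger in size than the Pam, Cpe and Scg5 differences. In G, Cpe was lower (-0.90) and Vgf was lower in males by a log2 difference of -6.25 (SE 0.54, adjusted p = 8e-07). In FSC, Agt was lower (-1.72) and Apln (0.68) and Cpe (0.26) higher in males, and in T Nucb2 was higher (1.54). DESeq2 called 0 genes of these lists higher in males in FSC, and 0 in T.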

How the data were processed

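The deposited table holds raw UMI counts per gene and cell. Per the labels and the methods of the study, the authors used Cell Ranger 2.1 for alignment to an NCBI rat reference with lengthened 3′ gene ends and for collapsing UMIs, and merged the lanes at an equal number of mapped reads. Lanes are named by the number that ends each barcode, and their sex follows from the cell counts stated in the methods. Replicate numbers are not known. A count of a gene extended at its 3′ end includes reads beyond the annotated gene.

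Cells were classed as the methods describe: Otsu thresholds (256 bins) on log10 counts scaled to the median depth with 1 added, marker rules per type, 192 kept cells named from 30 neighbours (1000 variable genes), and removal of 183 doublets (adjusted p of 0.01 in 10 repeats), 275 mitochondrial outliers (over 2 SD), 331 depth outliers (1.5% at each end) and 190 ambiguous cells. UMIs were summed and tested with edgeR 4.0.16 in R 4.3.3 (quasi-likelihood, TMM, filterByExpr with a minimum count of 10). All p-values are 2-sided and adjusted by Benjamini-Hochberg over all genes of a contrast, with 0.001 as the limit. Sums per type and pool, with pool as a block, gave differences between types, sums per lane gave sex differences, and sums per type and lane gave their differences between types. Likeness used log2 CPM with a prior count of 2, among genes with at least 30 UMIs. The limit for 0 cells is 3 cells.

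All 9 members are named. Of the other lists, genes called for a type are named, at most 3 per list and type by size, and the genes called between the sexes are all named. The list genes Nms and Qpct were not found in the table. Members and lists were chosen with earlier results of these data known. Alternatives were DESeq2 1.42.0, library size alone, no filter, 7 hormone genes left out, other cell filters, lanes as blocks, E kept, a limit of 0.05, other detection rules and each lane left out. The fits were also run on simulated counts with known changes. All types there shared a common expression profile, so those runs do not cover genes absent from a type. Python 3.11.15, numpy 2.4.6, scipy 1.17.1, scikit-learn 1.9.0 and matplotlib 3.10.9 were used.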

Additional observations from a re-analysis of the deposited data

Results flagged for a closer look

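The male to female difference of 3 members in 1 cell type differed from that in the mean of the other 5 pituitary types by edgeR's test of the difference itself, on lanes of 1 pool per sex. Gal in lactotrophs differed by -6.07 on the log2 scale, Nmb in lactotrophs by -8.63, Nmu in gonadotrophs by -2.98 and Nmu in somatotrophs by 2.45. Of all genes 6.41% were called in lactotrophs, 1.34% in gonadotrophs and 0.952% in somatotrophs. The Gal call did not hold under every alternative and was lost with doublets and outliers kept. Few corticotrophs, gonadotrophs or thyrotrophs expressed Gal, so its contrast cannot show whether the difference is particular to lactotrophs.

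3 signals lay in cells that no comparison used. Doublets and outliers were not removed from the posterior pituitary cells and melanotrophs, but were removed from the types set beside them. Penk was expressed in 52.5% of the 59 posterior pituitary cells (31 cells, exact interval 39.1 to 65.7, 570 CPM), beside 81.5% of folliculostellate cells (1668 CPM) and 0 of 550 leukocytes. The 55 male posterior cells expressed it in 50.9% (535 CPM), beside 82.7% of male folliculostellate cells (1945 CPM). S100b, a marker of folliculostellate cells, is also among the marker genes of the posterior cells. Pdyn was expressed in 43.3% of the 60 melanotrophs (26 cells, exact interval 30.6 to 56.8, 57.9 CPM), beside 31.1% of gonadotrophs (50.1 CPM), 5.16% of corticotrophs (5.04 CPM) and 0 of 550 leukocytes. The 56 male melanotrophs expressed it in 44.6% (59.2 CPM), beside 25.3% of male gonadotrophs (42 CPM). Among the lactotrophs left out for their depth, 4 male cells held 4704 Cartpt UMIs, more than the 2604 of all lactotrophs used, with 2257, 1784 and 629 UMIs in the 3 highest. Their median share of Prl was 29.9% of UMIs. A Cartpt level in lactotrophs therefore depends on whether these cells are kept.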

How the results depend on the processing

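No paired analysis was possible because barcodes carry only a lane number and the replicate number of a lane is not known. The 7 calls of a member in 1 type held under every alternative. Their number rose to 22 with no filter on low counts, 13 with lane as a block and 15 at adjusted p below 0.05, and was 7 to 9 with a lane left out. Of the 14 sex differences within types, 10 held under every alternative, and the 4 others (Nmb in C, Cartpt in S, Nmu in L and Cartpt in L) lost the call under at least 1. With a lane left out the number was 12 to 16, and with DESeq2 10. Of the 4 differences of a sex difference between types, 3 held and Gal in L did not. The number was 12 with no filter, 10 at adjusted p below 0.05 and 4 to 8 with a lane left out. Pairs of a member and a type at 5% of cells or more numbered 18, 29 when 1 UMI sufficed, 12 in thinned cells and 16 to 18 with a lane left out. The filter, the detection rule and the limit change these counts by construction, and for the lane block the cause was not tested. Depth limits Kiss1, with 49 UMIs in all, and every share in T.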
